A study of Macaca mulatta with 8 samples.

Results

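The transcripts of rhesus macaque eggs that had matured inside the animal were described from 4 arrays, labelled in vivo matured replicates 1 to 4, out of 8 arrays in the series. Each array carried amplified RNA from a pool of 4 oocytes at metaphase II, where a mature egg rests until a sperm reaches it. The other arrays held metaphase II oocytes matured in culture and were not used here. The labels call the 4 pools biological replicates and name no donor animal, age or hormone treatment, so the spread between pools may be technical in part. All probe sets with exactly 1 gene symbol were taken, 24956 of 52766. Leaving out symbols that are only numbered loci gave 23265 probe sets for 12993 named genes.

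A fully grown egg makes little or no new RNA. It lives on messages stored during growth, which are kept silent with short poly(A) tails, then translated, and later destroyed in an ordered way. The arrest at metaphase II is held by cyclin B with its kinase CDK1 and by the MOS and MAP kinase pathway, until the calcium signal of fertilization lets the anaphase promoting complex destroy cyclin B and securin.

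A gene was read at its brightest probe set, as a MAS5 signal on a linear scale. Probe sets differ in how strongly they respond to a given amount of RNA, and the signal is not a level per transcript length. The order of genes given here is therefore an order of probe set signals, and neighbours in it that lie within their spread have no order. For each array, the background limit was set at the 95th percentile of its 59 controls for sequences absent from the spike mix. It lay between 15.7 and 27.0 on the 4 arrays. A gene at or below background has a dark probe set, which does not show that its transcript is missing. Of the 6011 genes with several probe sets, the brightest exceeded the next by a median of 2.82-fold, and by over 10-fold in 1054 genes.

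The oocyte identity of the pools was read from 17 marker genes, of which 13 were named on the array and 12 lay above background on all 4 arrays, as did 62.3% of all named genes. Of the 13 markers, 10 were in the brightest 10% of genes. MOS, the kinase of the cytostatic pathway, gave signals of 4799, 5273, 4305 and 5330 in replicates 1 to 4. BMP15, a growth factor secreted by the oocyte, gave 998, 996, 904 and 885. NOBOX, a transcription factor of growing oocytes, was the exception at 18.7, 29.9, 45.4 and 8.80, near background.

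The arrays were alike in overall scale, with a 2% trimmed mean near 150 on each, and Pearson correlations between pairs of arrays over log2 values of all named genes ran from 0.93 to 0.96. Between 9325 and 10214 genes lay above background on an array. Replicate 4 stood apart at the bright end. It was the highest of the 4 arrays for 39 of the 40 brightest genes and 97 of the 100 brightest, while 28.9% of all genes above background on every array were highest there. After quantile normalization, replicate 4 was highest for 11 of the 40 and 33 of the 100. The geometric mean of 27 hybridisation control probe sets was 3308 on replicate 4 and between 1243 and 1930 on the others. The 3'/5' ratio of the elongation factor 1 alpha control, a sign of RNA integrity and amplification, was 2.70, 7.70, 2.72 and 12.8 in replicates 1 to 4. The same ratio was highest on replicate 2 for the GAPDH control, at 24.6, 49.4, 20.6 and 24.8, and for the actin control, at 75.3, 149.98, 51.2 and 108. The part of these measures in the results was not tested.

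Of the 12993 named genes, 8098 (62.3%) lay above background on all 4 arrays, 3434 on 1 to 3 arrays, and 1433 (11%) had no probe set above background on any array. The median gene had a mean signal of 84.1. A mean signal above 1000 was reached by 1715 genes (13.2%) and one above 10000 by 53. With a signal of 100 as the limit in place of the control probe sets, 5144 genes (39.6%) passed on all 4 arrays. The 100 brightest genes (0.77% of the named genes) held 13.5%, 14.8%, 12.7% and 19.2% of the summed signal in replicates 1 to 4, a mean of 15.04% ± 2.88 (SD, n = 4). Without replicate 4 the mean was 13.8%. Of the 100 brightest probe sets on the array, named or not, 49 belonged to named genes, 36 had no symbol, 8 had several and 7 had only a locus number, so the ranking covers the named portion of the egg's brightest messages.

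NLRP4, an NLR family gene known for its expression in oocytes, was the brightest named gene. Its signals were 13264, 16796, 12462 and 28499, a mean of 17755 ± 7406 (SD, n = 4). PTTG1, the securin that holds separase inactive until anaphase, came next with 13840, 17189, 12803 and 24233. At a second probe set PTTG1 gave 6529 to 15043, and at another 185 to 296. H3-3B, which encodes the replacement histone H3.3, gave 11799, 14816, 11943 and 23092, with similar signals at 2 further probe sets. Its last probe set gave 2449, 2658, 2512 and 2381, with replicate 4 lowest. Replicate 4 was highest for each of these genes at its brightest probe set, and replicates 1 and 3 were the lowest. Transcripts of H3-3B, ACTG1 and the ribosomal proteins have near-identical copies elsewhere in the genome, so their probe sets may read more than 1 gene.

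LIN7A, a scaffold protein of cell junctions, came next and gave 11592 to 23733 at 1 probe set, while its other 5 probe sets had means between 6.03 and 14.7, so that its place rests on a single probe set. ACTG1, a cytoplasmic actin, had a mean of 15330 ± 3046. HPF1, the partner of PARP1 in the response to DNA damage, had a mean of 15133 ± 5258. PCNA, the sliding clamp of DNA replication, had a mean of 14987 ± 5653. BCL2L10, a BCL2 family member abundant in oocytes, gave 11243, 14067, 10314 and 23853. AURKA, the kinase that helps to build the spindle poles, gave 11495, 14196, 10548 and 21051, with 9424 to 15059 at a second probe set and 73.2 to 127 at the third.

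Places 10 to 20 were held by SERPINE2, RGS2, MTMR3, RPS3, ODC1, ZP3, RPLP1, YPEL5, UBE2D3, RBBP7 and PDLIM1, with means from 13703 down to 12303. SERPINE2 is a secreted protease inhibitor, RGS2 a brake on G protein signalling, ODC1 the first enzyme of polyamine synthesis and RBBP7 a histone-binding subunit of chromatin complexes. The SD over the pools was between 1509 and 4699 in these 11 genes, so their places overlap. RPS3 was the steadiest of them, at 12982, 13904, 10648 and 13776, and replicate 4 was not its highest array.

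Places 21 to 40 held RPL35A, ALAS1, ZFAND5, EFNA1, BTG4, ACTL8, CKS1B, TENT4A, CDH3, ARHGAP18, BOD1, ERFE, MAP2K1, IGF2BP3, WFDC2, NPM1, RPS28, AOAH, CLEC10A and TMEM255A. Their means ran from 12287 down to 10862. Of the 40 brightest genes, 24 had several probe sets, and in 9 of these the next probe set was over 10-fold dimmer. In RBBP7 and EFNA1 it had a mean of 7.10 and 27.5, near background, and in RPS28 it had a mean of 27.6. Several act on messenger RNA. BTG4 recruits the deadenylase that removes maternal messages, TENT4A is a non-canonical poly(A) polymerase and IGF2BP3 binds and stabilises messages. ERFE, the hormone erythroferrone, gave 9621, 11509, 8301 and 16238 at its only probe set. CLEC10A, a lectin of macrophages and dendritic cells, gave 8380, 9865, 9293 and 16485 at its only probe set. AOAH, an enzyme that detoxifies bacterial lipopolysaccharide, gave 8713 to 14767 at 1 probe set and 3.40 to 48.9 at its other.

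**Figure D1:**
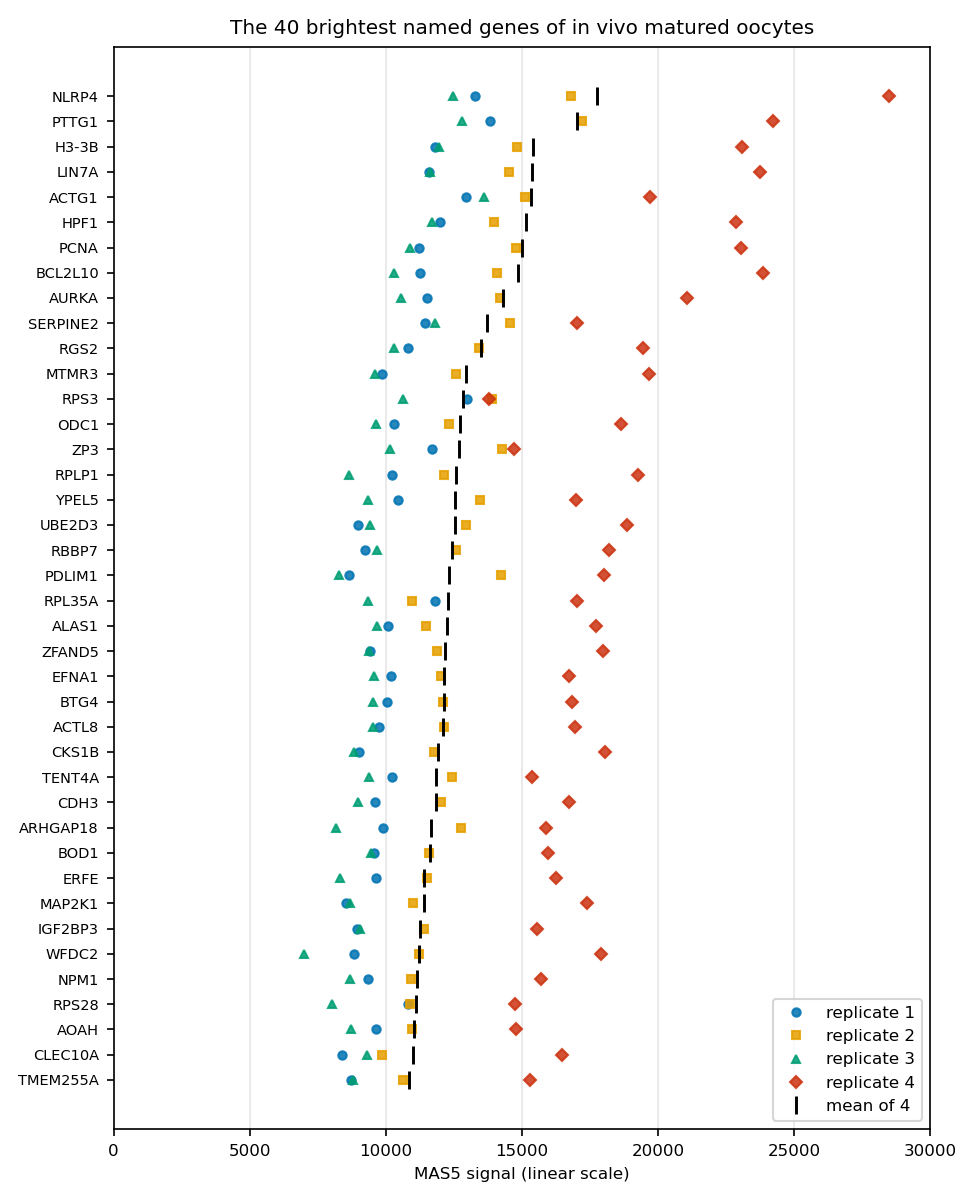
MAS5 signal on a linear axis for the 40 brightest named genes, 1 row per gene, with 1 symbol per in vivo replicate. Replicate 4 is the rightmost symbol in 39 of the 40 rows, and NLRP4 at the top has a mean of 17755.

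The NLRP genes and the subcortical maternal complex, a protein assembly under the egg's membrane that early cleavage depends on, were bright as a group. Of 12 members on the array, 10 lay above background on all 4 arrays (62.3% over all genes), and 8 were in the brightest 10% of genes. Beside NLRP4, NLRP11 gave 6759, 9406, 7667 and 12334. OOEP, a core protein of the complex, gave 8855, 7584, 5694 and 10229. KHDC3L, another core protein, gave 5175, 8702, 4087 and 7375. NLRP14 and DPPA5 had means of 3037 ± 618 and 2948 ± 424. NLRP5, the scaffold of the complex, gave 1540, 1832, 3929 and 2392, with replicate 3 highest.

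The zona pellucida is the coat that sperm must bind and cross. Of 10 coat and membrane genes, 9 lay above background on all 4 arrays (62.3% over all genes) and 3 were in the brightest 10%. ZP3 gave 11684, 14282, 10140 and 14715. ZP1 gave 1288, 1736, 945 and 1860, and ZP4 gave 549, 451, 642 and 352 at its brightest probe set. UCHL1, a ubiquitin hydrolase abundant in oocytes, had a mean of 2579 ± 886. CD81 and CD55, membrane proteins, had means of 703 ± 218 and 645 ± 73.1. CD46, a complement regulator, was at or below background on all 4 arrays, with 14, 5.10, 26.7 and 11.9. A brightest probe set dark on every array was found for 11.2% of all named genes.

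Genes of the metaphase arrest were almost all well lit. Of 24 members, 22 lay above background on all 4 arrays (62.3% over all genes) and 14 were in the brightest 10%. CCNB1, the cyclin whose destruction ends the arrest, gave 7705, 7526, 7298 and 8590 at its brightest probe set, an SD of 0.10 on the log2 scale. CKS1B, which binds the cyclin-dependent kinase, gave 8997, 11782, 8837 and 18037, and its relative CKS2 gave 5145, 5775, 4529 and 6257. MAP2K1, the kinase between MOS and MAP kinase, gave 8553, 10991, 8666 and 17395. AURKC, the aurora kinase of germ cells, gave 6314, 5525, 5482 and 6050. The pools lay close together for CCNB1 and AURKC at these probe sets, while replicate 4 lay apart for CKS1B and MAP2K1. At its second probe set, CCNB1 gave 5751, 7415, 5706 and 11272, with replicate 4 apart there too. 3 further genes are named after their values were seen. CDK1 itself had a mean of 491 ± 231, and its inhibitory kinases PKMYT1 and WEE1 had means of 70.0 ± 36.4 and 33.5 ± 22.4.

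In the machinery that ends the arrest, 18 of 21 genes lay above background on all 4 arrays (62.3% over all genes). Of the 21, 7 were in the brightest 10%. CDC16, a subunit of the anaphase promoting complex, gave 5472, 6778, 4528 and 8226. CDC26, a small subunit, gave 2835, 2966, 2502 and 2503. FBXO5, an inhibitor of the complex, had a mean of 3085 ± 758. The cohesin genes SMC3 and RAD21, whose ring holds sister chromatids together, had means of 2278 ± 540 and 1854 ± 225.

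Spindle and kinetochore genes were above background on all 4 arrays in 23 of 26 cases (62.3% over all genes). Of the 26, 6 were in the brightest 10%. CDCA8, a subunit of the chromosomal passenger complex, gave 4225, 4734, 4876 and 4490. KIF2C, a motor that takes microtubules apart, gave 3604, 4889, 4306 and 4939. TACC3 and CKAP5, which act together on spindle microtubules, had means of 3273 ± 1072 and 2440 ± 155. KIF4A and KIF23, motors of the central spindle, had means of 2398 ± 364 and 1921 ± 285. Probe sets of the kinetochore genes SPC24 and KNL1 were dark on all 4 arrays, with means of 11.5 ± 4.73 and 6.43 ± 9.55. KNL1 had a mean of 1.67 without replicate 3, where it read 20.7. Of 8 tubulin genes, 6 lay above background on all 4 arrays (75%, against 62.3% over all genes). TUBA4A, an alpha tubulin, gave 1467, 2004, 2284 and 1979, and TUBG1, the gamma tubulin that starts microtubules, gave 1334, 1338, 887 and 1165. TUBB, a beta tubulin, was uneven at 758, 305, 942 and 259, with replicates 1 and 3 above 2 and 4.

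Genes that store, tail and clear maternal messages were above background on all 4 arrays in 35 of 39 cases (62.3% over all genes). Of the 39, 15 were in the brightest 10%. BTG4 gave 10035, 12100, 9518 and 16850, and IGF2BP3 gave 8935, 11404, 9052 and 15569. ZAR1, which binds stored messages, gave 4810, 5378, 7306 and 8215. CPEB1, which recruits the polyadenylation machinery, gave 3821, 5997, 3634 and 7022. PAIP1, a partner of the poly(A)-binding protein, and YBX1, a packaging protein, had means of 4901 ± 1766 and 4893 ± 1457. DAZL, a germ cell activator of translation, gave 3348, 4055, 3633 and 6024. Every one of these genes was lowest on replicate 1 or replicate 3. The probe set of IGF2BP2 was dark on all 4 arrays, with a mean of 5.90 ± 6.56, or 2.73 without replicate 4.

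The brightest transcription factors of the oocyte had lower signals than the brightest genes of message storage, while the medians of the lists were 768 and 741. Of 12 factors, 9 lay above background on all 4 arrays (75%, against 62.3% over all genes) and 3 were in the brightest 10%. SOHLH2, which acts early in follicle growth, gave 5670, 7425, 5635 and 7879. NPM2, an egg histone chaperone, gave 2280, 2462, 3142 and 3571. FIGLA, which switches on the zona genes, gave 1601, 1496, 2154 and 1554, with replicate 3 apart from the rest. SALL4, POU5F1 and FOXR1 had means of 1277 ± 263, 1222 ± 314 and 929 ± 112. POU5F1, the pluripotency factor OCT4, was higher in replicates 1 and 2, at 1540 and 1442, than in replicates 3 and 4, at 980 and 925.

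Secreted factors and receptors of the oocyte had a median signal of 343. Of 10, 8 lay above background on all 4 arrays (62.3% over all genes) and 0 were in the brightest 10%. ACVR2B, a receptor for activins, gave 1357, 1450, 643 and 590. BMP15 had an SD of 0.09 on the log2 scale, the smallest of the 10. FGF9, a growth factor, gave 507, 533 and 520 in replicates 1 to 3 and 805 in replicate 4. BMP4, KIT and ACVR2A had means of 499 ± 245, 427 ± 137 and 259 ± 46.4.

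Histone genes spanned the whole range. Of 13, 10 lay above background on all 4 arrays (62.3% over all genes) and 4 were in the brightest 10%. H2AC6 gave 6987, 7687, 5258 and 11166, and the variant H2AZ1 gave 2417, 1491, 1881 and 2701. The linker histones H1-1 and H1-3 had means of 1432 ± 545 and 713 ± 358, both lowest on replicate 3. H4C8 gave 455, 90.3, 275 and 122. The probe set of H1-4 was dark on all 4 arrays, with a mean of 5.68 ± 6.85, or 2.33 without replicate 4.

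Regulators of DNA methylation and chromatin were above background on all 4 arrays in 24 of 29 cases (62.3% over all genes). Of the 29, 6 were in the brightest 10%. UHRF1, which guides maintenance methylation, gave 3523, 5580, 4417 and 7605. KDM1B, a histone demethylase needed for maternal imprints in mice, gave 3151, 4468, 2999 and 5514. The methyltransferases KMT2D and PRMT1 had means of 2373 ± 583 and 2186 ± 776. The de novo DNA methyltransferases DNMT3A and DNMT3B had means of 1757 ± 624 and 1515 ± 381, each highest on replicate 2. The probe set of their cofactor DNMT3L was dark on all 4 arrays, at 5.45 ± 3.92, or 3.50 without replicate 3. DNMT1, named after its value was seen, had a mean of 22.0 ± 18.0, near background.

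Cytosolic ribosomal proteins had the highest median signal of the lists, and 35 of the 80 listed were named on the array. Of 35 cytosolic ribosomal proteins, 30 lay above background on all 4 arrays (62.3% over all genes). Of the 35, 27 had a mean above 1000 (13.2% over all genes) and 26 were in the brightest 10%. Their median signal was 3374 against 84.1 over all genes. RPLP1 of the ribosomal stalk gave 10236, 12149, 8631 and 19282, RPL35A gave 11808, 10968, 9344 and 17027, and RPS28 gave 10799, 10905, 8032 and 14753. RPL30 and RPS21 had means of 10545 ± 2309 and 9553 ± 2617. Replicate 3 was the lowest array for each of these genes. RPS19 was dark on all 4 arrays, with a mean of 8.53 ± 7.11, or 5.03 without replicate 4.

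All 27 translation factors lay above background on all 4 arrays (62.3% over all genes), and 9 were in the brightest 10%. EIF4G2, which supports initiation without a cap, gave 8633, 10945, 9295 and 13412. EIF5B, which joins the subunits, gave 6905, 11152, 6596 and 13367. EIF4A2, a helicase, and EIF1, a factor of start codon choice, had means of 8293 ± 2640 and 7465 ± 1830. EIF3E and EIF3F, subunits of the scaffold factor EIF3, had means of 5030 ± 729 and 3272 ± 437, and replicate 4 gave the lowest signal of both.

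Mitochondrial respiration was broadly represented. Of 51 subunits of oxidative phosphorylation, 50 lay above background on all 4 arrays (62.3% over all genes), and 14 were in the brightest 10%. ATP5MC3, a subunit of ATP synthase, gave 4824, 5583, 4783 and 5981. NDUFC1 of complex I gave 3349, 3499, 3217 and 5143, with replicate 4 apart. ATP5F1C, NDUFA6, NDUFB2 and UQCRQ had means between 2313 and 3571. The summed signal of the 51 genes moved little between pools, from 53177 to 55819.

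Glycolysis and pyruvate genes were less uniform. Of 19, 14 lay above background on all 4 arrays (73.7%, against 62.3% over all genes) and 6 were in the brightest 10%. DLAT, a subunit of the pyruvate dehydrogenase complex, gave 2955, 3264, 2910 and 2671, and HK1, the first enzyme of glycolysis, gave 3305, 3034, 2381 and 3085. ENO1, enolase, gave 3541, 2977, 5958 and 1947, and ALDOA, aldolase, gave 2442, 1185, 2399 and 645. PFKP, a phosphofructokinase, gave 1151, 1062, 2907 and 648, a mean of 1442 that was 953 without replicate 3. GPI, the isomerase before it, had a mean of 1409 ± 386. Replicate 4 was lowest for ENO1, ALDOA, PFKP and GPI. The summed signal of the list ran from 12156 in replicate 4 to 21871 in replicate 3. PDK3 was dark on all 4 arrays, at 5.68 ± 5.91, or 2.83 without replicate 4.

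All 23 proteasome genes lay above background on all 4 arrays (62.3% over all genes), and 9 were in the brightest 10%. PSMA7, an alpha subunit of the core, gave 7720, 8856, 6288 and 8941. PSMD9, a chaperone of regulatory particle assembly, gave 7937, 8972, 6816 and 7556. PSMA3, PSMA2, PSMD1 and PSMB2 had means between 2745 and 5770. The summed signal of the 23 genes ran only from 45454 to 47374.

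Protein folding genes were above background on all 4 arrays in 24 of 27 cases (62.3% over all genes), with 12 in the brightest 10%. HSP90AB1, the constitutive cytosolic HSP90, gave 7831, 8484, 6272 and 14483, and HSPA8, the constitutive HSP70, gave 5188, 6336, 5066 and 11645. CANX, a chaperone of the endoplasmic reticulum, gave 4510, 6054, 5924 and 5067. The chaperonin subunits CCT6A and TCP1 had means of 3526 ± 978 and 3160 ± 987, with replicate 4 highest for CCT6A and lowest for TCP1. IFT25, a small heat shock protein of intraflagellar transport, had a mean of 4613 ± 923. PTGES3, a co-chaperone of HSP90, had a dark probe set at 2.30 ± 0.876.

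Genes against oxidative stress were above background on all 4 arrays in 18 of 21 cases (62.3% over all genes). Of the 21, 9 were in the brightest 10%. GSTM3, a glutathione transferase, gave 8518, 9756, 8339 and 12746. SOD1, the cytosolic superoxide dismutase, gave 8038, 10049, 8656 and 7807, and replicate 4 was its lowest array. MT1X, a metallothionein, gave 4092, 6847, 6079 and 8569. GCLC, the rate-limiting enzyme of glutathione synthesis, gave 3789, 5430, 4897 and 6402. The microsomal transferases MGST3 and MGST2 had means of 4109 ± 840 and 3681 ± 382. PRDX6 was dark on all 4 arrays, at 3.68 ± 2.99, or 2.27 without replicate 3.

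Small RNA pathways were bright in few members. Of 19 genes, 13 lay above background on all 4 arrays, near the 62.3% of all genes in share, and 3 were in the brightest 10%. MAEL, which silences transposons in germ cells, gave 5457, 6677, 5922 and 5724. HENMT1, which methylates piRNA ends, gave 3612, 4810, 4116 and 3690. The Tudor proteins TDRD7 and TDRD6 had means of 1754 ± 202 and 991 ± 82.2. AGO1 and AGO2, the Argonaute proteins of the miRNA pathway, had means of 272 ± 49.8 and 252 ± 56.2. The median SD of the members above background was 0.25 on the log2 scale, against 0.36 over all genes above background.

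Nuclear transport genes were above background on all 4 arrays in 19 of 22 cases (62.3% over all genes), with 7 in the brightest 10%. CSE1L, which returns importin alpha to the cytoplasm, gave 5064, 6559, 5156 and 7951. RAN, the GTPase that drives transport, gave 5466, 4213, 5444 and 2964, with the opposite order of pools. TNPO3, KPNB1, IPO8 and TNPO1 had means between 2162 and 3347.

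Calcium and egg activation genes were above background on all 4 arrays in 18 of 24 cases (62.3% over all genes). Their median signal was 100.3 against 84.1 over all genes, and 2 were in the brightest 10%. ATP2A2, the calcium pump of the endoplasmic reticulum, gave 1657, 2059, 2124 and 2098. ITPR1, the receptor through which the fertilization signal releases calcium, gave 591, 679, 519 and 1046. RAB27A, a GTPase of secretory vesicles, gave 1590, 1762, 2296 and 1825. The phosphatase subunit PPP3CB and the membrane pump ATP2B1 had means of 1070 ± 220 and 1005 ± 88.6. PRKCD, a protein kinase C, gave 207 in replicate 1 and 359 to 387 in the others. CAMK2A, a calcium-dependent kinase of neurons, was dark on all 4 arrays at 7.23 ± 4.42.

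Over the 21 lists of genes chosen as expressed in oocytes, 410 of 472 genes (86.9%) lay above background on all 4 arrays. The share over all named genes was 62.3%. At a signal of 100 the share of the lists was 73.3%, against 39.6% over all named genes. The lists were chosen with earlier results of these data known, so these shares are a description and in part reflect that choice. The 11 members dark at every probe set on every array were the genes given above. Their brightest means ran from 2.30 for PTGES3 to 14.4 for CD46.

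**Figure D2:**
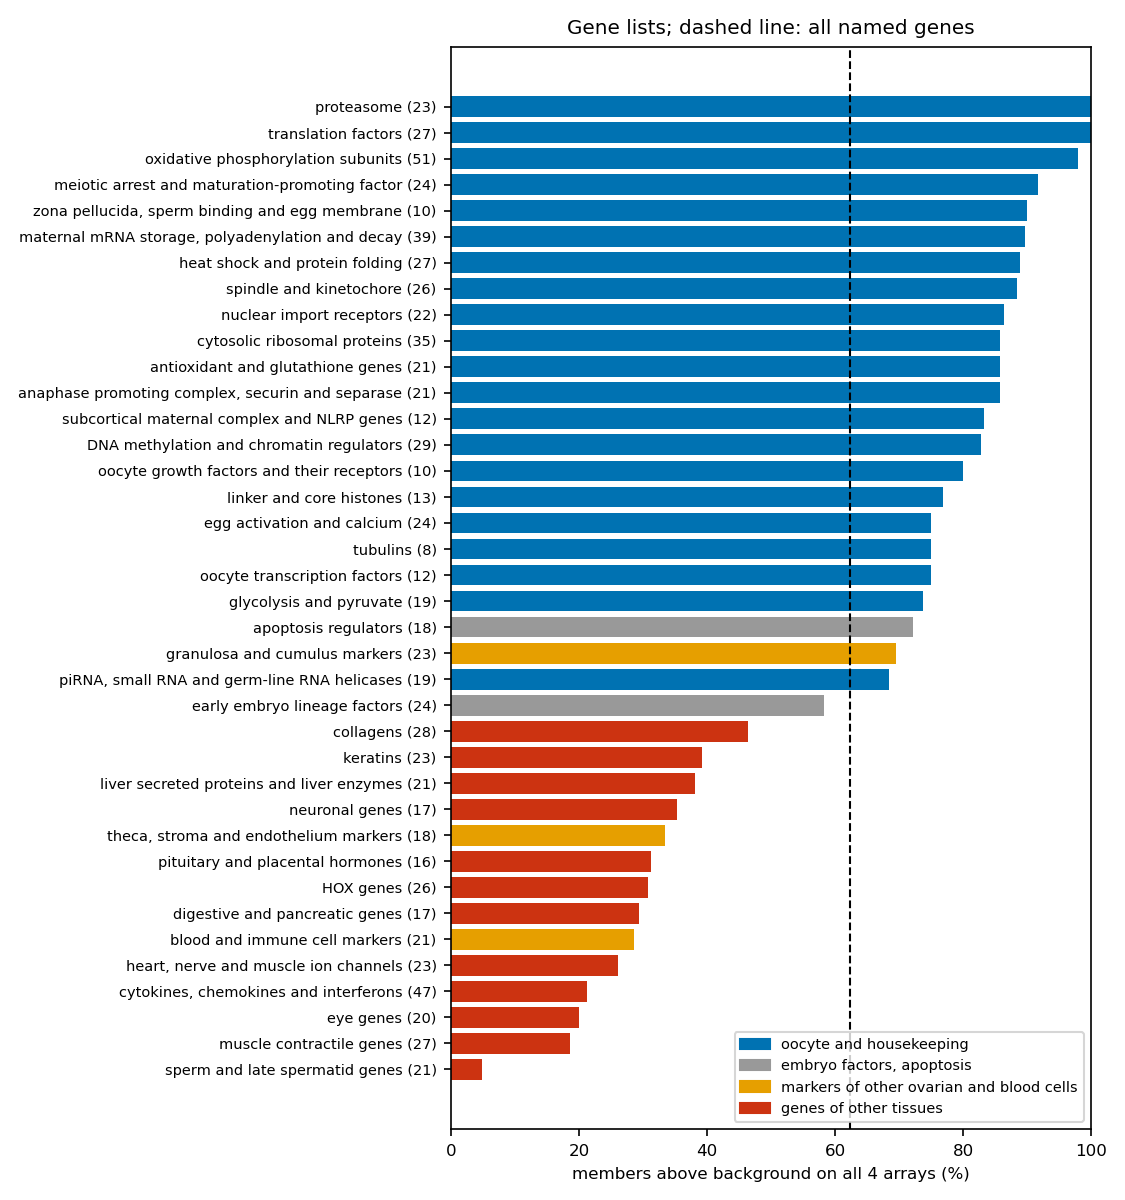
Percentage of members above background on all 4 arrays, on an axis from 0 to 100, for each gene list, with the number of members beside it. The dashed line marks 62.3%, the share of all 12993 named genes, and the sperm and late spermatid list lies lowest with 1 of 21 genes.

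Factors of the first embryonic lineages had a median signal of 108, against 84.1 over all genes. Of 24, 14 lay above background on all 4 arrays (62.3% over all genes) and 0 were in the brightest 10%. TFAP2C, a trophoblast factor, gave 774, 969, 699 and 823, and LIN28B, which blocks let-7 maturation, gave 748, 865, 719 and 736. YAP1, a coactivator of the Hippo pathway, and KLF4 had means of 709 ± 195 and 668 ± 167. GATA6, a factor of primitive endoderm, had a mean of 324 ± 87.2. MYC gave 143, 828, 348 and 86.7, a mean of 351 that was 193 without replicate 2. NANOG, CDX2 and SOX2, named after their values were seen, had means of 210 ± 57.3, 269 ± 125 and 23.8 ± 11.1.

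Regulators of cell death had 13 of 18 genes above background on all 4 arrays, 72.2% against 62.3% over all genes. BCL2L10, given above, was the brightest of the list. BIRC2, an inhibitor of apoptosis protein, had a mean of 1080 ± 300. BCL2L11, BCL2L1 and MCL1 had means of 327 ± 31.6, 316 ± 116 and 180 ± 66.9. BAX, which permeabilises mitochondria, gave 105, 71.3 and 63.7 in replicates 1, 3 and 4 and 5595 in replicate 2. Its mean of 1459 was 79.9 without replicate 2.

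Genes that mark other tissues mostly lay near background, in lists also chosen with earlier results of these data known. In 12 lists of such genes, 80 of 286 (28.0%) lay above background on all 4 arrays against 62.3% of all named genes, and 11.2% passed a signal of 100 on all 4 against 39.6%. The median signal was 20.7, within the range of the background, and 69 of the 286 had no probe set above background on any array. Sperm and late spermatid genes had 1 of 21 above background on all 4 arrays, namely ODF2, a component of centrioles as well as of the sperm tail, at 75.2, 82.4, 173 and 81.5. Muscle contractile genes had 5 of 27, and the brightest was MYH3, an embryonic myosin, at a mean of 139 ± 54.6. TNNT1, MYH8, RYR2 and TNNI1 had means between 46.2 and 88.2. Lens and retina genes had 4 of 20, which were BFSP2, BFSP1, CRYAB and CRYGD. Cytokines, chemokines and interferons had 10 of 47, and ion channels of heart, nerve and muscle had 6 of 23. In ascending order the other shares were 5 of 17 digestive genes, 8 of 26 HOX genes, 5 of 16 hormones, 6 of 17 neuronal genes, 8 of 21 liver genes, 9 of 23 keratins and 13 of 28 collagens.

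A few tissue genes were nonetheless bright in every pool. CCL25, a chemokine that draws T cells to the thymus and gut, gave 6093, 6690, 5822 and 6274. A second probe set of CCL25 gave 3986 to 7869 and another 600 to 809, while the last had a mean of 27.8. MBP, the myelin basic protein gene, gave 2516, 2813, 2085 and 2563 at 1 probe set and 115 to 153 at its other. IL10, an anti-inflammatory cytokine, gave 1456, 1919, 1612 and 2766 at 1 probe set and 37.6 to 57.2 at its other. TFF3, a trefoil peptide of the gut, gave 1552, 1436, 1919 and 1268. SERPINA1, the protease inhibitor alpha-1 antitrypsin, gave 1334, 1221, 1134 and 1988, and its other 5 probe sets had means from 15.9 to 269.8. Of the 80 tissue genes above background on all 4 arrays, 45 had several probe sets, and in 15 of these the next probe set was over 10-fold dimmer.

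COL6A3, a chain of type VI collagen, gave 884, 1004, 1496 and 949, although COL6A1 and COL6A2, its partner chains named after their values were seen, had means of 26.2 ± 13.01 and 17.9 ± 8.93. The lens filament genes BFSP2 and BFSP1 gave 901 to 1143 and 568 to 1039. ENO2, the enolase of neurons, had a mean of 1108 ± 220. GAD1, which makes the transmitter GABA, had a mean of 833 ± 165, and the neurofilament gene NEFH had a mean of 791 ± 299. CRH, the corticotropin-releasing hormone gene, had a mean of 604 ± 148, and KRT10, a keratin of skin, had a mean of 579 ± 62.1. F2 and AMBP, liver products of the blood, had means of 548 ± 142 and 534 ± 281. Second probe sets of F2, BFSP1, KCNJ2 and AMBP had means of 6.10, 12.3, 17.5 and 21.5, and those of GAD1 had means of 67.1 and 25.2. KCNJ2, an inward rectifier potassium channel, HOXA7 and CPA1, a pancreatic carboxypeptidase, had means of 464 ± 107, 393 ± 118 and 366 ± 86.4. COL12A1 gave 559, 116, 1053 and 164, a mean of 473 that was 280 without replicate 3. IL4, COL5A2 and DBH had means of 459 ± 198, 429 ± 229 and 379 ± 88.5.

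The remaining tissue genes were dimmer. CRYAB had a mean of 364 ± 198. APOC3, G6PC1, PRL, HP, HOXB6, HOXD1 and COL18A1 had means between 202 and 283. CXCL11, COL9A1, VIL1, IL2, HOXA10 and CRYGD had means between 101 and 161, as did KRT12, at 168 in replicate 1 and 74.1 to 86.4 in the others. ADM gave 322 in replicate 1 and 84.5 to 124 in the others, a mean of 159 that was 105 without replicate 1. CCL3 read 302 in replicate 1 and 1.4 to 3.30 in the others at its brightest probe set, so that its mean of 77.2 was 2.23 without replicate 1. KRT16 and IL16 had means of 76.9 and 62.4, or 48.4 and 32.6 without replicate 3, where both were highest. The other tissue genes above background on all 4 arrays, such as COL11A2, GFAP and CACNA1B, had means between 31.0 and 97.3.

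Families were also grouped by the letters before the first digit of the symbol, for the 93 such stems with at least 15 genes. The 10 stems with the largest share above background on all 4 arrays lay between 86.7% and 97.1%, against 62.3% over all genes. They were EIF with 34 of 35 genes, RBM with 27 of 28, MRPS with 21 of 22, POLR with 19 of 20, GTF with 16 of 17, PHF with 14 of 15, VPS with 23 of 25, MRPL with 36 of 40, DDX with 21 of 24 and ATG with 13 of 15. These stems name translation initiation factors, RNA-binding motif proteins, subunits of the mitochondrial ribosome and of the RNA polymerases, general transcription factors, PHD finger proteins, vesicle sorting proteins, RNA helicases and autophagy proteins. The DHX stem, also with 13 of 15, had the same share as ATG and was left out by alphabetical order alone. The splicing factors RBM17 and RBM22 had means of 8077 ± 1716 and 4063 ± 963. GTF2B, the general factor that bridges polymerase and promoter, gave 5974, 7369, 5966 and 7445, and GTF3C2 had a mean of 3470 ± 445. The mitochondrial ribosomal proteins MRPS14, MRPL43, MRPL39 and MRPS9 had means between 2107 and 5444, with MRPL43 highest on replicate 1 and MRPS14 highest on replicate 4. The helicases DDX47 and DDX59 had means of 3514 ± 320 and 3179 ± 606. ATG3 and ATG5, which act in autophagosome formation, had means of 3197 ± 332 and 1139 ± 104. VPS9D1, POLR1D, VPS72, POLR2K, PHF1 and PHF20 had means between 1651 and 2860.

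The 10 stems with the smallest share lay between 11.8% and 33.3%, against 62.3% over all genes. They were WNT with 2 of 17 genes, OR with 23 of 151, TAS with 3 of 19, CCL with 4 of 21, CLDN with 4 of 17, PRSS with 4 of 16, MMP with 6 of 22, SPATA with 6 of 21, and FGF with 6 of 18 and GPR with 19 of 57 at the same share. They name secreted signals, odorant and taste receptors, chemokines, claudins of tight junctions, serine proteases, matrix metalloproteases, spermatogenesis genes, fibroblast growth factors and orphan receptors. The brightest members of the WNT and TAS stems, WNT11 and TAS2R1, had means of 48.7 ± 16.4 and 48.2 ± 19.7, and WNT10B and TAS2R7 had means of 38.2 ± 11.4 and 43.2 ± 13.9. Among 151 odorant receptors the brightest were OR2A12, at 195 ± 35.5, and OR2A25, at 182 ± 66.4.

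Several of these dim families held a few brighter genes. SPATA22, a meiotic recombination gene, gave 3976, 4280, 3740 and 7430, with replicate 4 apart. SPATA2 had a mean of 2044 ± 300. FGF14 gave 3082, 2958, 2171 and 4391, although the median of the 18 FGF genes was 24.0. PRSS16, a thymus serine protease, had a mean of 1275 ± 196, while PRSS2, a pancreatic trypsin, was next at 96.3 ± 64.8. GPR137B gave 1609, 2574, 1411 and 1500, and GPR160 had a mean of 1174 ± 131. CLDN10 and CLDN3 had means of 338 ± 146 and 80.9 ± 63.2. MMP7 and MMP11 had means of 188 ± 26.5 and 119 ± 58.8.

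Markers of other ovarian cells were checked because cumulus cells surround the egg before they are stripped. In a pooled sample, fewer cells of a type and less RNA per cell cannot be told apart. Of 23 granulosa and cumulus markers, 16 lay above background on all 4 arrays (62.3% over all genes), and their summed signal ran from 25534 to 27362. SERPINE2, at 11427, 14547, 11821 and 17018, supplied much of that sum. TIMP1, a protease inhibitor, gave 4286, 4086, 2720 and 2538, and VCAN, a proteoglycan of the cumulus matrix, gave 3409, 3279, 3130 and 3447. VIM, an intermediate filament of many cells, gave 4643, 1757, 3802 and 1240. FST, the activin-binding follistatin, gave 1122, 541, 1107 and 437. Replicates 1 and 3 lay above replicates 2 and 4 for VIM and FST but not for VCAN or SERPINE2.

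Steroid and hormone genes of granulosa cells ranged from dark to moderate signals. CYP19A1, the aromatase, gave 47.8, 295, 75.8 and 39.7, a mean of 115 that was 54.4 without replicate 2. INHA and INHBA, subunits of inhibin, had means of 428 ± 104 and 165 ± 72.4, while INHBB was dark on all 4 arrays. STAR, which brings cholesterol into mitochondria, had a mean of 191 ± 98.9, and AMHR2 had a mean of 46.8 ± 13.9. The cumulus expansion genes TNFAIP6 and HAS2 had means of 545 ± 118 and 136 ± 42.8, with HAS2 at 199.8 in replicate 2 and 111 to 117 in the others. HSD11B1, NR5A2, AREG and KRT18 had means of 232 ± 119, 155 ± 110, 133 ± 114 and 61.5 ± 23.5. AREG read 32.5 and 35.2 in replicates 1 and 2 and 235 and 228 in replicates 3 and 4. The oocyte markers above summed to between 51805 and 71986 on the same arrays. The part of cumulus RNA in the granulosa signals was not tested.

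Vessel, theca and stroma markers were above background on all 4 arrays in 6 of 18 cases (33.3%, against 62.3% over all genes). Their summed signal ran from 2268 in replicate 4 to 3309 in replicate 1. The 6 were the endothelial genes TEK at 779 ± 248, ENG at 646 ± 92.1, CDH5 at 540 ± 33.3, VWF at 211 ± 32.3 and PECAM1 at 194 ± 55.3, and the matrix gene DCN at 85.5 ± 52.8. MYH11, the smooth muscle myosin, gave 360, 53.7, 230 and 11.5, a mean of 164 that was 98.2 without replicate 1. Dark on all 4 arrays were the matrix genes COL1A1 and LUM, the theca enzyme CYP17A1, and the endothelial genes KDR and CLDN5. Blood and immune markers were above background on all 4 arrays in 6 of 21 cases (28.6%, against 62.3% over all genes). They summed to 542 to 675. None of the 21 had a mean above 72.1, that of the globin gene HBB, which was 41.2 without replicate 2. The 6 were CSF1R, CD68, PF4, CD79B, CD4 and S100A8, with means between 30.3 and 70.6. CD68 had a mean of 49.2, or 25.9 without replicate 1. HBA, CD79A, CD8A and S100A9 were dark on all 4 arrays.

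**Figure D3:**
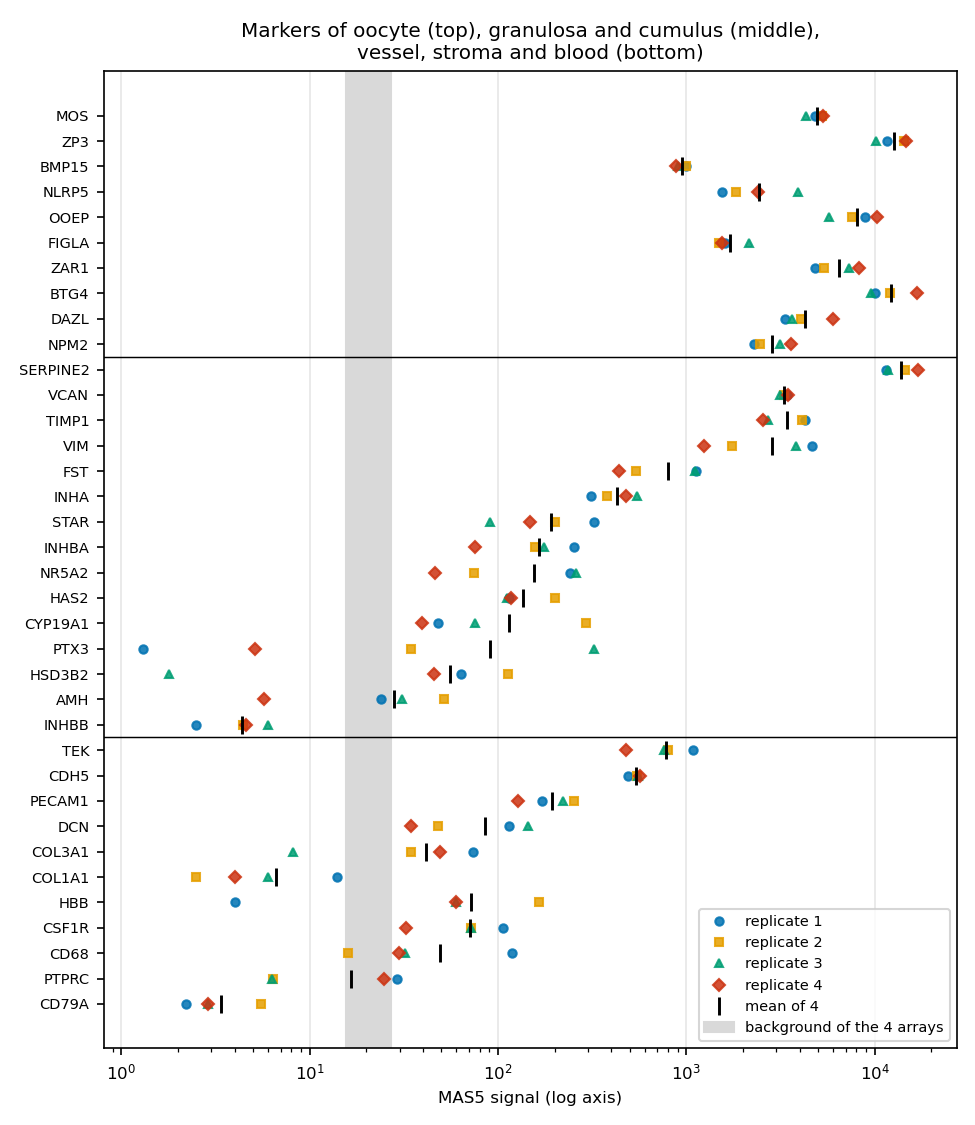
MAS5 signal on a log axis for selected markers of the oocyte, of granulosa and cumulus cells, and of vessel, stroma and blood cells. Each row has 1 symbol per in vivo replicate. Not every marker of the text is drawn, and NOBOX, TNFAIP6, ENG and VWF are among those left out. SERPINE2 lies among the bright oocyte markers, CYP19A1 reaches 295 only in replicate 2, and the blood markers have means no higher than 72.1.

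Spread between pools was measured as the SD over the 4 arrays of log2(signal + 7.8), with 7.8 taken from the lower quartile of the non-control signals (25th percentile). Over the 8098 genes above background on every array, the median SD was 0.36, with quartiles of 0.25 and 0.52. On the linear scale the median coefficient of variation was 26.1%. The spread was smallest among bright genes, with a median of 0.30 in the brightest 10%, and reached 0.73 among dim genes with mean signals between 11.2 and 19.4. Among the genes above background, 358 (4.42%) had over a 4-fold range between their highest and lowest pool. The 100 brightest genes had a median SD of 0.39, which was 0.12 after quantile normalization and 0.20 without replicate 4. By list, the median SD of members above background ran from 0.25 for the small RNA genes to 0.62 for the granulosa and cumulus markers.

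**Figure D4:**
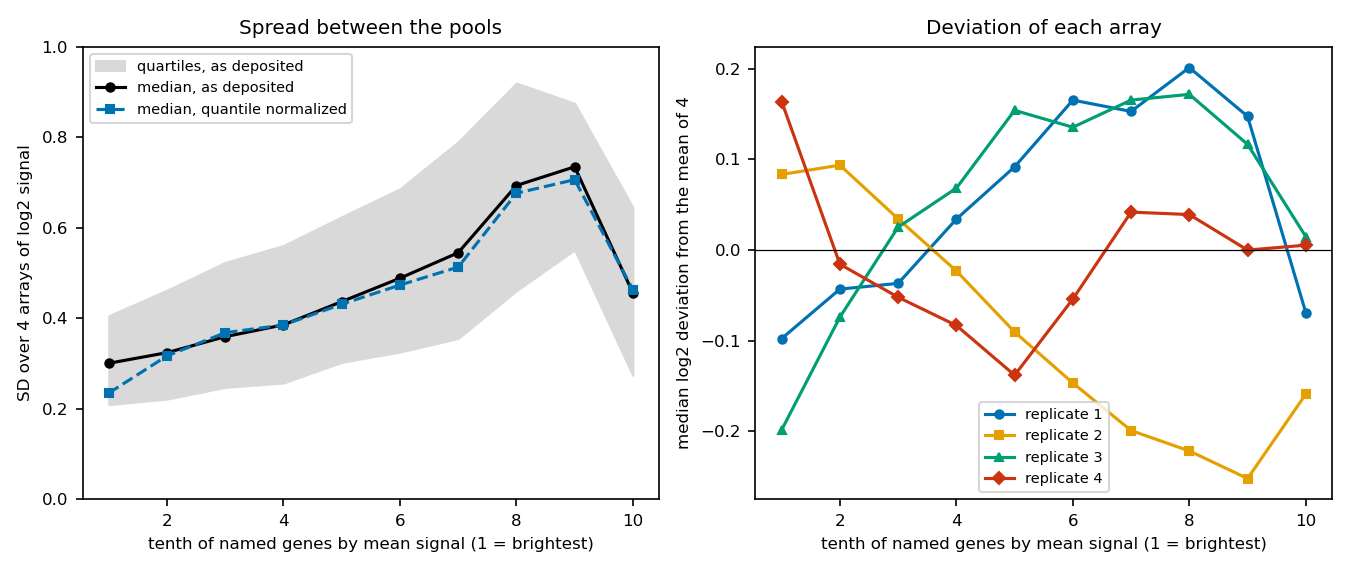
Left, SD over the 4 arrays of log2 signal by groups of 10% of the named genes, brightest first, with the median and quartiles as deposited and the median after quantile normalization. Right, the median log2 deviation of each array from the mean of the 4 in the same groups, where replicate 4 is highest in the brightest 10%, whose median SD is 0.30.

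The steadiest bright genes were looked for among the 3248 genes with a mean signal above 379. ELOVL3, an elongase of fatty acids, gave 467, 475, 466 and 469.9. PSEN2, a presenilin, gave 1877, 1845, 1815 and 1769.6, and SDHC, a subunit of succinate dehydrogenase, gave 1089.8, 1155, 1154 and 1119. UBR4, RAB6A, PARP16, ACTR10, UGCG, PDCD2 and TASOR completed the 10, with highest over lowest pool between 1.08-fold and 1.09-fold. These genes were chosen for their small spread at their brightest probe set, so their values are a description. Other probe sets can differ. ACTR10 gave 342.5, 228.7, 284.9 and 171.7 at its second probe set, and PDCD2 gave 87.3, 54.8, 51.3 and 69.4. After quantile normalization the SD of the 10 lay between 0.04 and 0.17, against 0.01 to 0.05 as deposited.

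The 15 most variable genes of the same set were chosen for their spread in the same way. FOS, an immediate early transcription factor, gave 209, 4007, 11454 and 94.0 at its only probe set. Its mean of 3941 was 1437 without replicate 3. USP14, a deubiquitinase of the proteasome, gave 25.3, 2645, 20.1 and 7.30, a mean of 675 that was 17.6 without replicate 2. BAX was likewise high in replicate 2 alone, at 5595, and its mean without that pool is given above. AKR1A1, an aldehyde reductase, gave 653, 8790, 4149 and 695, a mean of 3572 that was 1832 without replicate 2. RPF1, a ribosome production factor, gave 424, 354, 1440.1 and 107, a mean of 581 that was 295 without replicate 3.

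RPF1 and the variable genes not yet named here shared an order of pools. In 11 of the 15, replicates 1 and 3 both lay above replicates 2 and 4. The same order was found in 12.4% of the 3248 genes they were drawn from. Over all genes above background on every array it was found in 23.2%. After quantile normalization the count was 11 too, and the share of the 3248 genes was 16.7%. DLK1, a Notch-related surface protein, gave 7019, 780.4, 3211 and 961, a mean of 2993 that was 1651 without replicate 1. GSTA3, a glutathione transferase also active in steroid synthesis, gave 1458, 276, 1360.4 and 87.2, with nearly the same values at a second probe set. FIBIN, a secreted protein, gave 2782, 509, 2485 and 299.5. SOX4, a transcription factor, gave 2091, 228, 1307 and 276, a mean of 976 that was 604 without replicate 1. GASK1B gave 1206, 201, 928 and 31.3, a mean of 591 that was 387 without replicate 1.

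DSE, an enzyme of dermatan sulfate, gave 1678, 382, 2464 and 210.1, a mean of 1183 that was 756 without replicate 3. At its second probe set DSE was even, between 554 and 757, so that its probe sets disagree on the spread. PAPSS2, which makes the sulfate donor, gave 1013, 186, 1023 and 110.2. BUB3, a spindle checkpoint gene, gave 1307, 242, 1183 and 172. CCDC80 gave 828, 305, 733 and 81.2, and ITGB5, an integrin, gave 1175, 199.7, 1086 and 178. Among the 100 most variable genes, 57 had replicates 1 and 3 above 2 and 4, beside the shares of 12.4% and 23.2% given above. The elongation factor control ratio was lower in replicates 1 and 3, at 2.70 and 2.72, than in replicates 2 and 4. So were the actin and GAPDH ratios, although GAPDH was close, at 24.6 in replicate 1 and 24.8 in replicate 4. The hybridisation controls were also lower in replicates 1 and 3, at 1304 and 1243, than in replicates 2 and 4, at 1930 and 3308. The part of these measures in this order was not tested. Some markers of other ovarian cells had the same order. Among markers above background on every array, it was found in 5 of 16 granulosa and cumulus markers. It was found in 1 of 6 such vessel, theca and stroma markers and 2 of 6 blood and immune markers. These lists are small, and their shares lay on either side of the 23.2% of all genes above background on every array. VIM, FST, NR5A2, at 242, 74.8, 258 and 46.4, and DCN, at 115, 48.2, 145 and 34.3, were among the markers with this order. MYH11 had this order too but was below background on replicate 4. The part of these cells in the order of the variable genes was not tested.

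**Figure D5:**
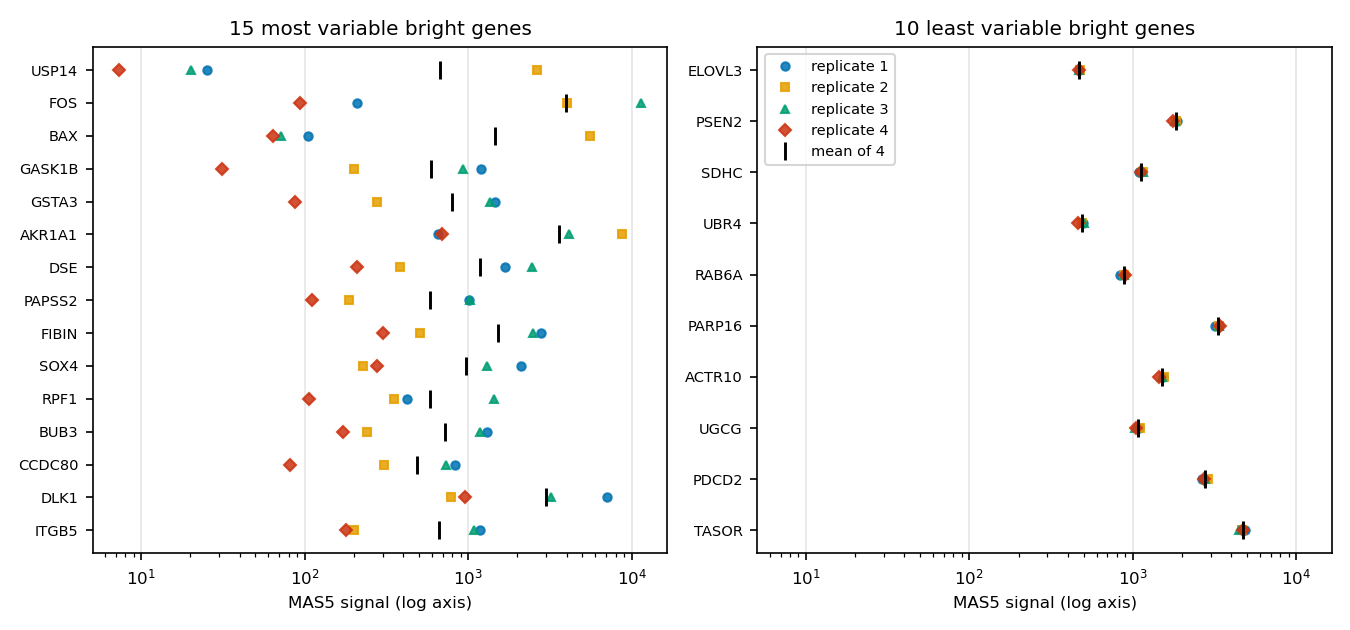
MAS5 signal on a log axis for the 15 most variable genes (left) and the 10 least variable genes (right) among the 3248 brighter named genes, with 1 symbol per in vivo replicate. USP14 and BAX are high in replicate 2 alone, and the 4 symbols of ELOVL3 coincide near 469.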

How the data were processed

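Per the labels' protocols, RNA was purified from 4 oocytes at a time, amplified in 2 rounds and labelled with biotin for a 1-colour array. The deposited values are MAS5 signal intensities, per the submitters' processing notes, and their scale is linear. No MAS5 version is stated there. Detection calls, the arrays of oocytes matured in culture and sequence features were not used here. Labelling of this kind is primed at the poly(A) tail, so stored messages with short tails may read low, which was not tested.

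Of 52766 non-control probe sets, 24956 had 1 symbol, and 24616 of these had an Entrez identifier in RefSeq (assembly T2T-MMU8v2.0), with 0 symbols changed. Values were computed in Python 3.11.15 with pandas 2.3.3 and numpy 2.4.6, after the steps were tested on simulated data. With a single group there was no comparison between groups and no test beside Dixon's criterion for a pool that lies apart. The number of arrays limits the precision.

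Named genes are the 40 brightest, the 6 brightest of each list, every tissue or other-cell gene above background on all 4 arrays, the 15 most and 10 least variable of the 3248 genes above the 75th percentile of mean signal, the 2 brightest members of the 20 families named for their share, and dark members of the oocyte lists. The members and lists were chosen with earlier results of these data known. Alternatives were other backgrounds, pseudocounts, probe set rules and normalizations, and each array left out in turn.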

Additional observations from a re-analysis of the deposited data

Results flagged for a closer look

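Of 355 named genes and the array measures, 24 had 1 pool whose gap to the nearest other pool was, as a share of the whole range, above Dixon's 95% critical value for 4 values. Chance flags about 1 in 20 groups. They are given as values.

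Replicate 2 was the high pool for BAX at 5595, USP14 at 2645, GPR137B at 2574, CYP19A1 at 295, MYH3 at 219.9 and HAS2 at 199.8. The 3'/5' ratio of the GAPDH control was also highest there, at 49.4. Replicate 4 was the high pool for SPATA22 at 7430.4, NDUFC1 at 5143 and FGF9 at 805, and the low pool for COL14A1 at 31.7.

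Replicate 1 was the high pool for ADM at 322, CCL3 at 302, KRT12 at 168, CD68 at 119 and CD79B at 50.6, and the low pool for ATP2A2 at 1657, PRKCD at 207 and PTGES3 at 1.0. Replicate 3 was the high pool for FIGLA at 2154, ODF2 at 173, IL16 at 152, KNL1 at 20.7 and DNMT3L at 11.3. KNL1, DNMT3L and PTGES3 lay at or below background on every array.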

How the results depend on the processing

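The count of 8098 genes above background on all 4 arrays was 5144 at a signal of 100, and 19989 over all non-control probe sets. Genes with no probe set above background, 1433 as reported, were 2605 with the highest control as background and 5981 at a signal of 100. With the median of a gene's probe sets, the 100 brightest genes held 19.0% of the signal in place of 15.04%, and 65 of the 100 were shared with the reported ranking. The median SD of 0.36 was 0.32 with a pseudocount of 27.1, 0.45 without the filter on dim genes and 0.40 with median centring. Leaving out each array in turn gave 8211 to 8616 genes above background, 1603 to 1948 with no probe set above, a share of 13.8% to 15.8%, 92 to 97 of the 100 brightest genes shared, a median SD of 0.32 to 0.37, and 553 to 579 list members above background in place of 545. With alternatives chosen after seeing the data, the 97 of 100 brightest genes highest on replicate 4 became 33 after quantile normalization, the median SD of these 100 genes fell from 0.39 to 0.12 after it and to 0.20 without replicate 4, and the 11 of 15 variable genes with replicates 1 and 3 above 2 and 4 stayed at 11. No paired analysis was possible because the values come from no test and only the in vivo arrays were used. The planned description of promoter and protein features was not run, since no sequence tables were at hand. Signals near background limit any order among dim genes.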

Other observations

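Immediate early genes, a list chosen after FOS had been seen, varied in their order of pools. As in FOS, replicates 2 and 3 were the highest for MYC, at 143, 828, 348 and 86.7 in replicates 1 to 4, and for IER5, at 179, 221, 545 and 194. IER2 gave 2971, 3321, 3452 and 4037, and KLF2 gave 3998, 4785, 3277 and 6057. FOSL2 lay between 446 and 571, and NR4A1 between 237 and 396. JUNB, JUND, EGR2, BTG2 and ZFP36 had means of 62.6 or less. Of the 18 genes of the list, FOS and MYC alone had a pool over 5 times another and all 4 pools above background. FOS had 1 probe set, so its 11454 in replicate 3 has no second reading on the array.

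USP14 and BAX were high in replicate 2 at every probe set, 5 for USP14 and 3 for BAX. The pool lay at least 7.47-fold above each of the others at every probe set of USP14 and at least 10.4-fold at every probe set of BAX. By a rule chosen after seeing the data, they were the only named genes where, at 2 or more probe sets, the same pool lay at least 5-fold above all the others with a signal over 100, or at least 5-fold below others that were all over 100. CCL3 passed at 1 probe set, and at another of its probe sets replicate 1 gave 38.4 against 0.4 to 3.40.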
